A study of Arabidopsis thaliana with 72 samples.

Results

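The daily course of transcript levels was followed in whole cotyledons, called whole leaf in the labels, of long-day Arabidopsis thaliana seedlings. These samples are the 12 arrays whose titles read long day and whole leaf, out of 72 arrays in all. The plants were wild type, accession Col-0, grown on medium after Murashige and Skoog to which 0.5% sucrose had been added, under 16 h of light and 8 h of dark. Seedlings aged 9 and 10 days were each sampled every 4 h, giving 1 array at each of 6 Zeitgeber times (ZT, counted in hours from lights on) from 0 to 20 per day, with light from ZT0 to ZT16. The groups set beside them, with 12 arrays each at the same times and days and of the same genotype and medium, were whole leaf from short days (8 h of light and 16 h of dark), and mesophyll and vasculature from long days. Those 2 tissues were freed from the cotyledon with enzymes and sonication within a short time of each time point, a treatment the whole leaf samples did not receive, per the labels. Values are background-corrected array intensities on the log2(intensity + 1) scale. The labels do not state whether the day 9 and day 10 samples of one time are from separate cultures, and p-values here reflect no more than the spread among these samples, possibly a technical one. The number of arrays, 2 per time, limits the precision.

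Leaves are reset each day by light and keep time through the circadian clock, a network with morning and evening members. These include transcription factors that repress each other. GIGANTEA (GI) is an evening member that also carries day length to flowering by allowing CONSTANS transcription. Downstream of light and clock lie the genes of photosynthesis, of the starch store that is laid down by day and consumed at night, of nitrogen and sulfur assimilation, of growth and of cold tolerance. The arrays measure whole organs, so a fall in a transcript can reflect fewer cells of a type or less RNA per cell, which cannot be told apart.

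The defining markers of leaf tissue were high in all 12 arrays. RCA, the Rubisco activase, had a median of 11.47 and HPR, the photorespiratory hydroxypyruvate reductase, one of 10.82, against a median of 2.74 over all probe sets kept. The phloem sucrose exporter SWEET11 reached 10.23 and FMA, a guard cell factor, 4.23, whereas OPS, MUTE, SPCH and the pollen marker AMS lay between 1.57 and 1.77, below the filter level of 1.92. Of the root markers, PYK10 had a median of 8.38 and EXPA7 one of 1.94, near the filter level. The filter on low values over all 72 arrays kept 21827 of 28583 probe sets, and 17229 of these were above the filter level in at least 6 of the 12 arrays used here. The ZT0 array of day 10 stood apart from the rest. Its mean intensity was 54.2, against 67.8 to 71.4 in the other 11 arrays, and 7.41% of probe sets differed by 1 or more from the ZT0 array of day 9, against 0.586% to 1.86% at the other 5 times. All 9 mesophyll markers were lower in it than at ZT0 of day 9, their summed intensity being 5540 in this array and 7710 to 13300 in the other 11. The summed vasculature markers were 1080 against 1110 to 1930, the epidermis and guard cell markers 39.4 against 33 to 56.2, and the early wound genes 68.9 against 52.3 to 146. The part of these differences in the results was not tested, and counts of rhythmic genes are given with and without it where it changes them.

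A 24-hour rhythm was called for 2079 of the 21827 probe sets, 9.52%, by limma's moderated F test of a cosine and a sine over the 12 arrays at a Benjamini-Hochberg adjusted p under 0.03. The fitted amplitude, which is the peak-to-trough distance divided by 2, had a median of 0.69 among them and of 0.17 over all kept probe sets. This median corresponds to a peak 2.61 times the trough, and 585 of the rhythmic probe sets (28.1%) had an amplitude of at least 1. The fitted peak time had a median standard error of 0.69 h. Fitted on each day alone, the peaks of the 2 days differed by a median of 0.75 h, a description only, since the call over both days already requires them to be close. Without the ZT0 array of day 10 the count was 2284, and 1731 probe sets were called in both fits, 83.3% of the first list and 75.8% of the second. The count was 1383 without the ZT0 array of day 9, 1382 without ZT12 of day 9 and 1370 without ZT12 of day 10.

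Peaks were found at all hours. Around ZT12, in the later part of the light period, 484 probe sets (23.3% of the rhythmic) had their peak, and 383 (18.4%) peaked around ZT20, in the dark. The windows around ZT0, ZT4, ZT8 and ZT16 held 333, 253, 299 and 327. Leaving out the ZT0 array of day 10 changed this spread, since the ZT4 window then held 398, the ZT0 window 435 and the ZT12 window 386. Peaks fell in the light for 1373 probe sets (66%), and the light period makes up 66.7% of the day. The median amplitude was 0.83 in the ZT4 window and 0.59 in the ZT20 window, with the other 4 windows between 0.62 and 0.79.

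**Figure D1:**
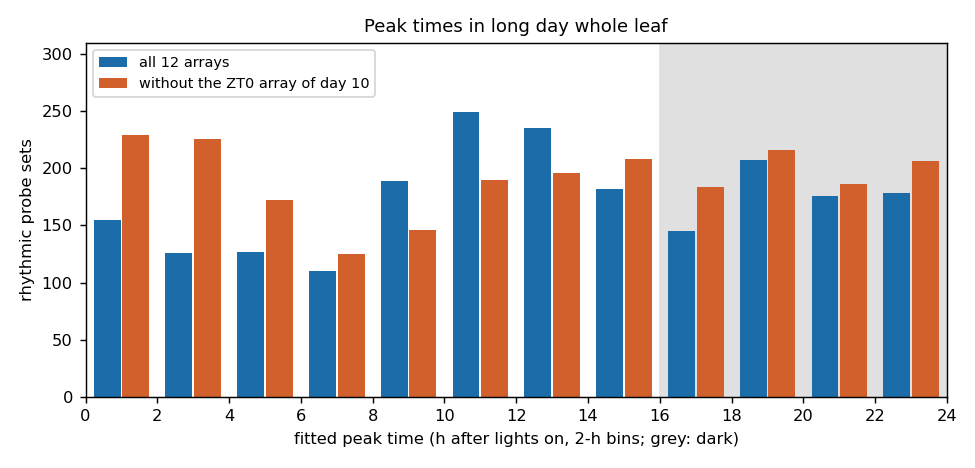
Number of rhythmic probe sets by fitted peak time in 2-h bins (x axis, hours after lights on; grey, dark), over all 12 arrays (blue) and without the ZT0 array of day 10 (orange). The ZT12 window is the fullest with all arrays (484 probe sets), and the ZT0 window without that array (435).

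The amplitudes described next chose the genes, so they are a description. The genes are those of largest amplitude in each 4-h window among probe sets with a single listed gene, and probe sets without one reached 3.8 to 4.65 in the 6 windows. Among the named genes, peaks around dawn were led by AT4G15430, a locus that the gene table does not name. Its values at ZT0 to ZT20 were 9.89, 7, 1.89, 1.7, 3.65 and 7.38 on day 9 and 8.89, 7.34, 2.33, 2.32, 3.87 and 7.43 on day 10. Both days were highest at ZT0 and lowest at ZT8 and ZT12, and no value at ZT0 overlapped one of another time. The fitted peak was at 23.5 ± 0.2 h (SE) with an amplitude of 3.95 ± 0.22 (SE, n = 12 arrays; adjusted p = 1e-05 in limma's F test). Its lowest arrays were below the filter level, so no fold is given. AT2G41250 peaked at 1.0 h with an amplitude of 2.84, AT2G15020 at 1.2 h with 2.83, and AT5G54130 at 22.9 h with 2.43.

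In the morning window AT1G73480 had the largest amplitude among probe sets with a single listed gene. Its values were 4.5, 8.35, 8.03, 3.1, 3.03 and 2.7 on day 9 and 4.88, 7.56, 8.66, 3.23, 2.37 and 2.28 on day 10. ZT4 and ZT8 were high on both days and did not overlap the other times. The amplitude was 3.23 ± 0.34 (SE) and the peak at 5.5 ± 0.4 h (adjusted p = 0.00068). AT1G66100 followed with an amplitude of 3.04 at 5.6 h, AT5G48490 with 2.86 at 3.2 h and AT4G12980 with 2.7 at 5.4 h. AT1G66100 had 9.15 at ZT0 of day 9 and 5.39 at ZT0 of day 10, and its adjusted p of 0.012 became at most 0.034 when either ZT4 array or the ZT16 array of day 10 was left out, which ended the call.

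At midday the largest amplitude of a listed gene belonged to THI2.2, a thionin, one of the small cysteine-rich antimicrobial peptides of plants. Its values were 7.99, 10.06, 8.25, 6.21, 3.35 and 2.09 on day 9 and 2.87, 9.8, 7.31, 6.35, 3.58 and 2.37 on day 10. The days were alike from ZT4 to ZT20 and far apart at ZT0. The amplitude was 3.47 ± 0.55 (SE) and the peak at 6.1 ± 0.6 h (adjusted p = 0.0058, and 0.0012 without the ZT0 array of day 10). GI came next with an amplitude of 3.42 at 8.4 h, and AT1G70820 peaked at 10.0 h with 3.11. Fes1B, a relative of nucleotide exchange factors for the chaperone Hsp70, peaked at 9.7 h with an amplitude of 2.29.

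Late in the light period the named gene of largest amplitude was AT1G56300. It read 1.82, 2.75, 8.74, 6.6, 4.23 and 2.69 on day 9 and 1.7, 1.89, 8.41, 6.86, 4.09 and 2.02 on day 10. ZT8 was highest and ZT12 second on both days, with a steep rise before and a slower decline after, and the fitted peak lay between them at 10.5 ± 0.5 h (amplitude 3.26 ± 0.45, SE; adjusted p = 0.003). AT3G62550, AT4G16146 and AT4G30650 had amplitudes of 3.12, 3 and 2.93 and peaks at 12.7, 12.6 and 11.3 h.

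Around lights off AT4G34950 led the named genes, with 4.81, 4.44, 9.25, 10.17, 9.77 and 9.5 on day 9 and 6.46, 4.8, 9.24, 10.08, 10.19 and 9.69 on day 10. It was low at ZT0 and ZT4 and high at the other 4 times on both days. The amplitude was 2.86 ± 0.41 (SE) with a peak at 14.4 ± 0.5 h (adjusted p = 0.0035). PWD, the phosphoglucan water dikinase that phosphorylates starch for its breakdown, peaked at 14.0 h with an amplitude of 2.09, and AT3G19100 at 17.7 h with 1.95. TMT1, which loads sugars into the vacuole, peaked at 16.1 h with 1.84 (adjusted p = 0.014, rising to at most 0.04 and past the threshold when either ZT4 array was left out).

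In the night window the named gene of largest amplitude was AT1G49200, which read 7, 1.99, 1.78, 1.75, 3.14 and 5.35 on day 9 and 5.8, 2.15, 1.62, 2.06, 3.1 and 5.2 on day 10. ZT20 and ZT0 were above all other times on both days. The amplitude was 2.34 ± 0.32 (SE) at 21.7 ± 0.5 h (adjusted p = 0.0029). AT3G19030 had 2.14 at 19.6 h, AT4G13180 had 1.83 at 19.4 h and AT2G28200 had 1.68 at 21.7 h.

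**Figure D2:**
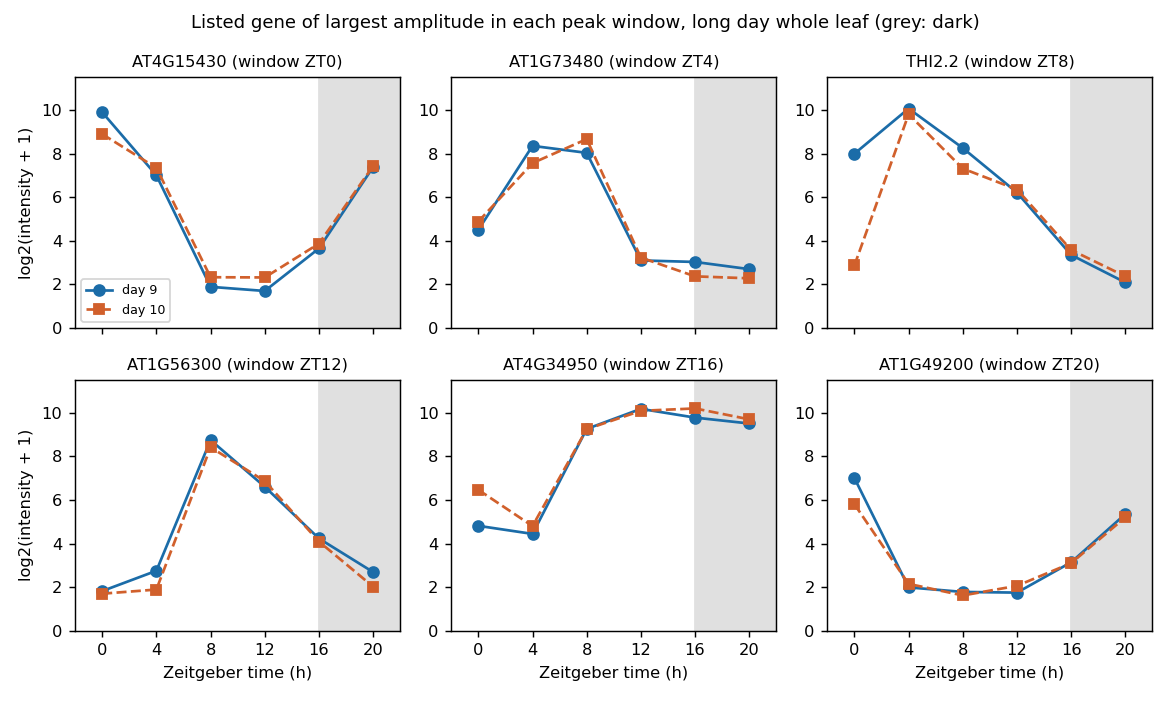
Log2(intensity + 1) at each Zeitgeber time on day 9 (blue circles) and day 10 (orange squares) for the listed gene of largest amplitude in each peak window (grey, dark). The days follow each other closely except at ZT0, where THI2.2 reads 7.99 on day 9 and 2.87 on day 10.

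Of the clock genes, few had a probe set of a single gene. GI read 2.02, 5.36, 9.38, 5.67, 2.35 and 2.04 on day 9 and 2.12, 4.42, 8.8, 5.87, 2.29 and 1.97 on day 10. It was highest at ZT8 on both days and near the filter level at ZT0 and from ZT16 on. The peak was at 8.4 ± 0.4 h with an amplitude of 3.42 ± 0.37 (SE, n = 12; adjusted p = 0.00082). The evening gene COR27, which responds to cold and light and whose protein acts on clock genes, read 3.65, 1.87, 5.68, 7.43, 4.86 and 6.15 on day 9 and 4.37, 1.76, 4.25, 6.44, 4.79 and 5.61 on day 10. It had 1 maximum at ZT12 and a smaller second one at ZT20 on both days, and a minimum at ZT4. Its cosine missed the threshold (adjusted p = 0.06), while the change over the 6 times passed it (adjusted p = 0.00068). AT4G33980, entered in the evening list by its locus, had an amplitude of 0.5 at 13.3 h and an adjusted p of 0.025, which was 0.036 both with the day as a block and without the ZT0 array of day 10, and was past the threshold without any of 10 of the 12 arrays. Thus 2 of 3 measured members of the evening list had a called rhythm, or 1 of 3 without the ZT0 array of day 10, against 9.52% of all probe sets.

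The morning list was represented by the loci AT4G01280 and AT5G52660. AT4G01280 ranged from 2.96 to 4.22 and AT5G52660 from 3.08 to 4.32. Neither had a called rhythm (adjusted p = 0.1 and 0.2), and without the ZT0 array of day 10 AT4G01280 passed it at 0.0036. None of 7 clock modifiers had a called rhythm. These were TIC (8.72 to 9.48), LIP1, a small GTPase (5.83 to 6.64), TZP (2.02 to 3.81), FIO1 (2.44 to 3.53), SIC (2.45 to 3.51), XCT (1.8 to 2.23) and STIPL1 (1.83 to 2.25). XCT and STIPL1 stayed near the filter level of 1.92, where a rhythm is hard to detect. TZP passed without the ZT0 array of day 10 (adjusted p = 0.0047, against 0.098 with it), and FIO1 changed over the 6 times (adjusted p = 0.025).

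Among flowering genes, SMZ, an AP2-type repressor of flowering, read 2.48, 2.14, 1.9, 3.61, 4.32 and 2.67 on day 9 and 2.12, 2.17, 2.05, 3.45, 3.63 and 2.31 on day 10. ZT12 and ZT16 were above all other arrays on both days. The peak was at 15.1 ± 0.7 h with an amplitude of 0.92 ± 0.17 (SE; adjusted p = 0.015, and up to 0.035 when an array of ZT12 or ZT16 was left out, which ended the call). Its relative SNZ ranged from 3.79 to 6.19, with an amplitude of 0.7 and an adjusted p of 0.074. AT1G69570 had 2 probe sets that disagreed, one with an amplitude of 0.55 at 2.0 h (adjusted p = 0.0046) and one of 0.11 (adjusted p = 0.76).

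Of 11 kept light harvesting and photosystem genes, 5 had a called rhythm (45.5%, against 9.52% of all probe sets) with peaks between 4.1 and 7.6 h, or 8 without the ZT0 array of day 10. LHB1B2, one of the near-identical Lhcb1 antenna proteins whose copies a probe set may not tell apart, read 9.95, 11.63, 11.59, 10.54, 8.88 and 8.45 on day 9 and 8.86, 11.43, 11.75, 10.87, 8.3 and 7.26 on day 10. ZT4 and ZT8 were the highest times and ZT16 and ZT20 the lowest on both days. Its amplitude was 2.04 ± 0.17 (SE) with a peak at 7.1 ± 0.3 h (adjusted p = 0.00014). LHCB4.2, a minor antenna protein of photosystem II, ranged from 5.58 to 9.87 with an amplitude of 1.88 at 4.1 h (adjusted p = 0.00066). The small photosystem II subunits PSBY and PSBW had amplitudes of 0.66 at 5.9 h and 0.55 at 7.6 h. PSBW never fell below 10.96, so its rhythm rode on a high level. PSAN and LHCB4.1 were lowest in the ZT0 array of day 10, at 9 and 7.07, and passed without it (adjusted p = 0.0012 and 0.004) but not with it (0.056 and 0.16).

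A wider list of thylakoid assembly and electron flow genes, which shares some of these members, had 9 of 29 with a rhythm. That is 31%, against 9.52% of all probe sets, and the count was 11 without the ZT0 array of day 10. PIFI, which acts with the chloroplast NADH dehydrogenase-like complex, had an amplitude of 1.08 at 10.5 h (adjusted p = 0.023), and CRR42, needed for assembly of that complex, 0.96 at 12.1 h (adjusted p = 0.0062, and 0.061 without both ZT0 arrays). The call of PIFI was lost with the day as a block (adjusted p = 0.034) and without any of 8 of the 12 arrays (up to 0.059). In chlorophyll synthesis 1 of 5 members was called, HEME1, a uroporphyrinogen decarboxylase, with an amplitude of 0.65 at 5.3 h, and 3 of 5 without the ZT0 array of day 10. None of 41 plastid-encoded photosynthesis genes and none of 22 plastid-encoded expression genes had a called rhythm in limma's F test, with median amplitudes of 0.11 and 0.13. Without that array 2 and 1 of them did. Calvin cycle genes (3 kept) and photorespiration genes (5 kept) had no called rhythm with or without it. SBPASE and PRK, both of the Calvin cycle, and HPR ranged from 8.77 to 11.17, 6.81 to 9.18 and 9.58 to 11.34, the lowest value of each being the ZT0 array of day 10.

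Starch genes had a called rhythm in 4 of 8 kept members, against 9.52% of all probe sets, with peaks from 9.4 to 14.0 h. In breakdown, 2 of 3 kept members were rhythmic. PWD read 6.38, 4.35, 8.59, 9.12, 8.66 and 7.9 on day 9 and 5.78, 4.69, 8.44, 9.19, 8.71 and 8.09 on day 10. It was lowest at ZT4 and highest at ZT12 on both days (18.1-fold between fitted trough and peak, adjusted p = 0.0046). DPE1, the plastid disproportionating enzyme that acts on maltotriose from starch, read 3.61, 4.31, 6.57, 6.69, 5.34 and 4.05 on day 9 and 3.26, 3.35, 6.35, 6.65, 5.73 and 4.1 on day 10. ZT8 and ZT12 were above all other times on both days. It peaked at 11.6 ± 0.3 h with an amplitude of 1.77 ± 0.15 (SE; adjusted p = 0.0002). In synthesis 2 of 5 were rhythmic, the branching enzyme SBE2.2 with an amplitude of 0.5 at 9.4 h (adjusted p = 0.0084) and the locus AT5G39790 with 0.68 at 10.2 h (adjusted p = 0.0036).

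Of 11 SWEET genes kept, 2 had a called rhythm (against 9.52% of all probe sets). SWEET2, a vacuolar sugar transporter, read 8.98, 6.53, 3.82, 3.59, 6.15 and 7.23 on day 9 and 7.11, 6.58, 4.24, 3.51, 6.14 and 6.79 on day 10. It was highest at ZT0 and lowest at ZT12 on both days, with a peak at 22.7 ± 0.4 h and an amplitude of 2.2 ± 0.24 (SE; 21-fold, adjusted p = 0.00076). SWEET16, also of the vacuole membrane, peaked at 6.5 h with an amplitude of 1.22 (adjusted p = 0.012, and 0.035 without the ZT8 array of day 9). The list's median amplitude was 0.3, against 0.17 over all probe sets. Of 6 dark and sugar starvation genes, 4 changed over the 6 times, against 19.4% of all probe sets. Of these 6, 0 had a called 24-hour rhythm in limma's F test, or 1 without the ZT0 array of day 10.

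Growth and hormone genes were called in part. Among 6 hypocotyl growth and auxin genes 4 were rhythmic (66.7%, against 9.52% of all probe sets), with peaks from 6.5 to 11 h. EXPA8, an expansin that loosens the cell wall, read 7.2, 9.47, 9.18, 7.67, 5.71 and 5.93 on day 9 and 6.39, 9.59, 9.42, 7.15, 6.9 and 5.96 on day 10. ZT4 and ZT8 were above all other times on both days. The peak was at 6.5 ± 0.4 h and the amplitude 1.91 ± 0.2 (SE; 14.2-fold, adjusted p = 0.00061). IAA29, an auxin-response repressor, had an amplitude of 0.59 at 7.4 h, BIM1, a bHLH partner of brassinosteroid transcription factors, 0.57 at 11 h, and SHB1, a regulator of hypocotyl length under blue light, 0.3 at 9.7 h. Their adjusted p-values of 0.02, 0.015 and 0.017 passed 0.03 without any of 7, 3 and 6 of the 12 arrays, reaching 0.058, 0.043 and 0.044. With the day as a block that of IAA29 was 0.031.

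Another expansin, EXPA16, stood at the opposite phase. It read 4.88, 2.14, 2.16, 3.18, 2.91 and 5.41 on day 9 and 4.53, 2.34, 2.32, 2.87, 2.31 and 5.11 on day 10. ZT20 and ZT0 were above all other arrays on both days. Its fitted peak was at 21.0 h with an amplitude of 1.4 (adjusted p = 0.023, 0.035 with the day as a block, lost without any of 9 of the 12 arrays and up to 0.064). EXLA1, an expansin-like gene, had 0.42 at 6.7 h and lost its call without any of 10 arrays (adjusted p = 0.026, 0.039 with the day as a block, otherwise up to 0.065). In the list of expansins and wall-modifying XTH genes 3 of 23 were called (13%), 1 of them without the ZT0 array of day 10, and in the wider wall list 3 of 35 (8.57%), near the 9.52% of all probe sets.

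In the hormone list 7 of 26 were rhythmic (26.9%, against 9.52% of all probe sets). RR16, a cytokinin-induced response regulator, read 3.65, 2.08, 1.88, 2.55, 2.65 and 4.72 on day 9 and 3.03, 1.8, 1.87, 2.22, 3.36 and 5.92 on day 10. ZT20 was highest on both days. It peaked at 19.9 ± 0.7 h with an amplitude of 1.49 ± 0.26 (SE; adjusted p = 0.0098). GID1A, a gibberellin receptor, had 1.09 at 13.6 h (adjusted p = 0.0064, and 0.044 without both ZT0 arrays) and XERICO, a RING protein that raises abscisic acid, 0.85 at 11.2 h (adjusted p = 0.0036). GH3.9, of the family that conjugates auxin to amino acids, had 0.74 at 4.4 h (adjusted p = 0.024, 0.033 with the day as a block, lost without any of 10 arrays and up to 0.069).

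Of 6 nitrogen and sulfur assimilation genes 3 had a called rhythm (50%, against 9.52% of all probe sets), with peaks from 18.8 to 24.0 h. The count was 4 without the ZT0 array of day 10. AAH, which releases nitrogen from purine breakdown, read 6.23, 4.59, 3.99, 2.93, 4.17 and 5.92 on day 9 and 6, 4.88, 4.73, 3.29, 4.07 and 5.33 on day 10. ZT0 and ZT20 were above all other arrays. The peak was at 23.5 ± 0.5 h and the amplitude 1.33 ± 0.16 (SE; adjusted p = 0.0014). SIR, the sulfite reductase, peaked at 18.8 h with 0.83 (adjusted p = 0.0027). AT3G21670, listed in RefSeq as NPF6.4 of the nitrate and peptide transporter family, peaked at 24.0 h with 1.39 (adjusted p = 0.028, 0.04 with the day as a block, lost without any of 8 arrays and up to 0.086).

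In redox repair 3 of 22 were called (13.6%, against 9.52% of all probe sets), and 6 without the ZT0 array of day 10. TRXF2, a chloroplast thioredoxin, peaked at 6.2 h with an amplitude of 1.15 (adjusted p = 0.0042), while the glutathione reductase GR1 peaked at 22.2 h with 1.19 (adjusted p = 0.01, and 0.031 without the ZT12 array of day 9). MSRB3, a methionine sulfoxide reductase, had 0.37 at 20.9 h and lost its call without any of 10 arrays (adjusted p = 0.029, 0.038 with the day as a block, otherwise up to 0.078). HYH, a bZIP factor related to HY5 in light signalling, read 5.17, 2.99, 1.93, 2.01, 2.89 and 3.75 on day 9 and 3.91, 3.1, 2.11, 2.12, 3.11 and 3.94 on day 10. It was at its lowest at ZT8 and ZT12 on both days and peaked at 22.4 ± 0.4 h with an amplitude of 1.25 ± 0.14 (SE; adjusted p = 0.001).

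Cold genes that were called peaked late in the light period. COR15B, a chloroplast protein that protects membranes in frost, read 1.8, 1.94, 4.2, 5.37, 3.51 and 2.29 on day 9 and 2.04, 1.86, 4.12, 4.69, 3.6 and 2.77 on day 10. ZT12 was highest, then ZT8, on both days. The peak was at 12.0 ± 0.4 h with an amplitude of 1.59 ± 0.16 (SE; adjusted p = 0.00045). COR47, a dehydrin, had 1.23 at 11.4 h (adjusted p = 0.024, 0.036 with the day as a block, lost without any of 7 arrays and up to 0.069). These were 2 of 7 kept members (28.6%, against 9.52% of all probe sets).

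UDP-glycosyltransferases, which attach sugars to small molecules, had 7 of 46 called (15.2%, against 9.52% of all probe sets), or 8 without the ZT0 array of day 10. Of the same 46, 17 changed over the 6 times, against 19.4% of all probe sets. UGT73B2 peaked at 18.5 h with an amplitude of 1.51 (adjusted p = 0.00022) and UGT71B1 at 16.1 h with 1.21 (adjusted p = 0.0084). UGT87A2 had 1.19 at 18.9 h (adjusted p = 0.029, 0.034 with the day as a block, lost without any single array and up to 0.068) and UGT80B1 1.04 at 10.5 h (adjusted p = 0.013, up to 0.036 and lost without the ZT0 or ZT12 array of day 9 or ZT8 of day 10). PYE, a regulator of iron shortage responses, had 0.95 at 18.6 h (adjusted p = 0.029, 0.041 with the day as a block, lost without any of 11 arrays and up to 0.07). Of 10 autophagy genes 1 was called, near the 9.52% of all probe sets, or 2 without the ZT0 array of day 10. It was ATG8D with 0.39 at 15.1 h (adjusted p = 0.026, lost without any of 11 arrays and up to 0.075). In breakdown of branched-chain amino acids and lipids it was AIM1, a peroxisomal beta-oxidation enzyme, with 0.59 at 11.9 h (adjusted p = 0.0024). It was 1 of 10 kept members (10%, near the 9.52% of all probe sets), or 2 without the ZT0 array of day 10. Of 20 chaperone genes 2 were called (10%, near the 9.52% of all probe sets), Fes1B and HSA32, a heat-acclimation protein. HSA32 had 0.37 at 0.8 h (adjusted p = 0.021, lost without any of 10 arrays and up to 0.053).

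**Figure D3:**
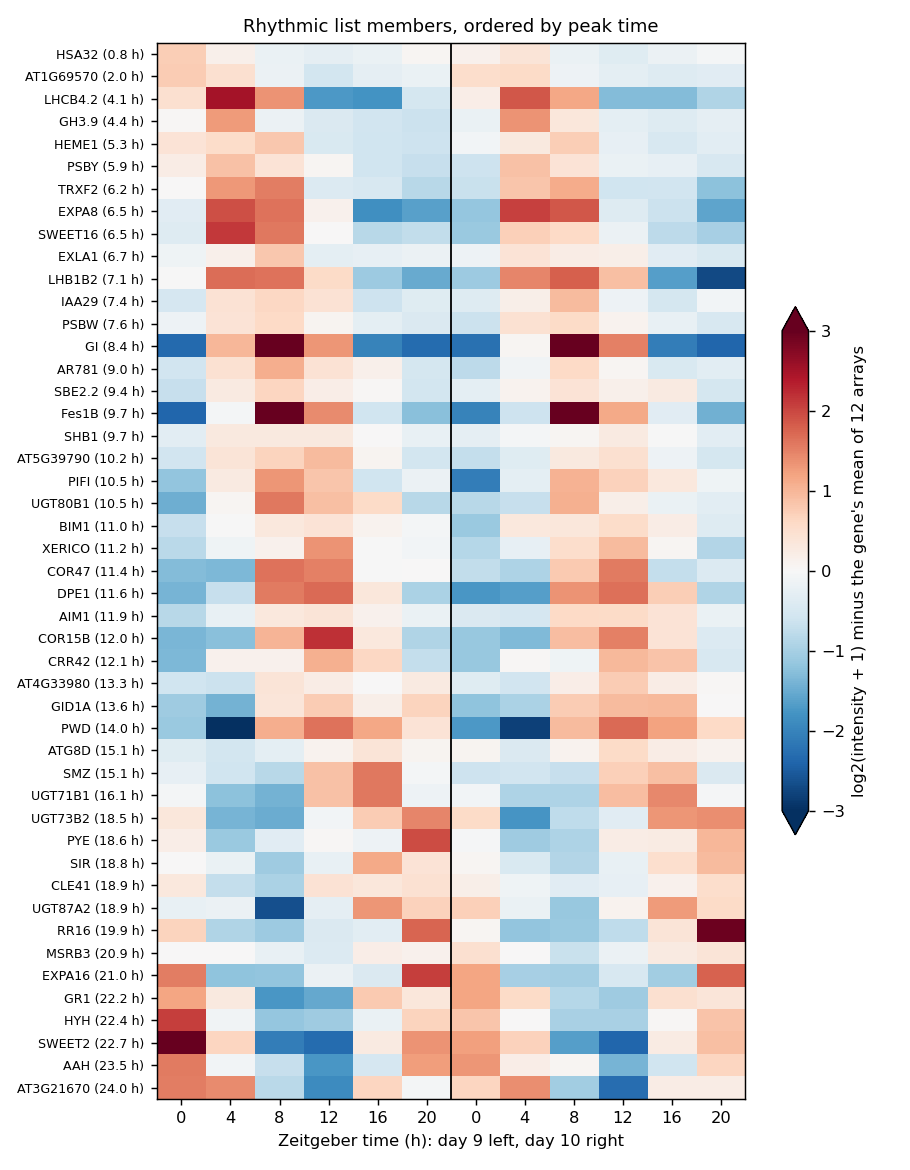
Named rhythmic members of the gene lists in each of the 12 arrays (x axis, Zeitgeber time, with day 9 left and day 10 right). Up to 4 members of largest amplitude are drawn per list, and all rhythmic ones of the clock and flowering lists. Each line is a gene, ordered by fitted peak time (given beside the name). Colour is log2(intensity + 1) minus the gene's mean, red above and blue below. The high values move from ZT4 and ZT8 (LHCB4.2, EXPA8) through ZT12 (DPE1, COR15B) to ZT20 and ZT0 (RR16, AAH) on both days. The order of the lines was set by these same values, so this is a description.

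None of 44 small peptide genes of the LCR and RALFL families had a called rhythm in limma's F test, with a median amplitude of 0.06 against 0.17 over all probe sets. The rest of this list of 81 probe sets was removed by the filter on low values. That filter used all 72 arrays, so a kept probe set can still lie below the filter level in these 12 arrays. Of the 44 kept, 3 changed over the 6 times, against 19.4% of all probe sets. Cell cycle genes (4 kept) and 5 epidermis and guard cell markers also had none. Of these markers, MUTE (1.56 to 1.88) stayed below the filter level of 1.92, and SPCH (1.48 to 2.02) lay near it. In the early wound list 1 of 11 was called (9.09%, near the 9.52% of all probe sets), AR781, with an amplitude of 0.66 at 9.0 h (adjusted p = 0.013, up to 0.034 and lost without the ZT0 array of day 9 or either ZT8 array). Of 9 mesophyll markers 1 had a rhythm (11.1%, near the 9.52% of all probe sets), LHB1B2, or 2 without the ZT0 array of day 10. Of 7 vasculature markers 1 was called (14.3%, against 9.52% of all probe sets), CLE41, a phloem-made peptide that maintains the cambium. CLE41 had 0.53 at 18.9 h (adjusted p = 0.027, 0.041 with the day as a block, lost without any of 11 arrays and up to 0.07).

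Many courses were not shaped like a cosine. The means of the 6 times differed for 4228 probe sets (19.4%) in limma's F test at an adjusted p under 0.03, of which 1727 also had a called rhythm and 2501 did not. The count was 5309 without the ZT0 array of day 10 and 2780 without the ZT4 array of day 9. A 12-hour component beside the 24-hour one passed an adjusted p under 0.05 for 1786 probe sets (8.18%). These made up 1279 (51.1%) of the 2501 that changed without a called rhythm and 341 (16.4%) of the rhythmic. In 894 of the 1786 the 12-hour amplitude was larger than the 24-hour one. Their 12-hour peaks fell most often around ZT4 and ZT16 (749, 41.9%), then around ZT8 and ZT20 (610, 34.2%) and ZT0 and ZT12 (427, 23.9%). The count was 2390 without the ZT0 array of day 10, and between 813 and 1171 without the ZT4, ZT8, ZT12 or ZT20 array of day 9 or the ZT4, ZT8 or ZT12 array of day 10.

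The 12-hour genes named here were chosen for the size of that component among probe sets with a single listed gene. AT3G24460 read 8.2, 9.43, 4.02, 2.27, 7.19 and 4.08 on day 9 and 5.97, 9.27, 3.83, 2.89, 7.31 and 3.26 on day 10. It was high at ZT4, fell to a minimum at ZT12, was high again at ZT16 and low at ZT20 on both days. Its 12-hour amplitude was 2.72 (adjusted p = 0.0023). TBL26, of a family that holds acetyltransferases of wall polysaccharides, read 3.49, 7.41, 2.63, 5.98, 7.61 and 2.86 on day 9 and 3.11, 7.74, 2.79, 5.46, 6.65 and 3.64 on day 10. Maxima at ZT4 and ZT16 stood on either side of a minimum at ZT8, with a 12-hour amplitude of 2.56 (adjusted p = 0.0023) and a 24-hour amplitude of 0.64.

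The other 4 had one maximum larger than the second. AT2G15880 read 8.5 and 7.73 at ZT8 on days 9 and 10, 4.92 and 3.43 at ZT20, and between 2.21 and 4.19 at the other times (12-hour amplitude 2.15, adjusted p = 0.0024). AT2G27420 read 6.06 and 6.81 at ZT4, 3.87 and 2.74 at ZT16, and at most 2.65 elsewhere (1.91, adjusted p = 0.0045). AT3G15450 had 8.18 and 7.7 at ZT8 (2.17, adjusted p = 0.035) and AT1G62510 10.16 and 9.74 at ZT4 (1.79, adjusted p = 0.028). The calls of these last 2 were each lost without any of 6 of the 12 arrays, with adjusted p-values up to 0.11 and 0.084.

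The first 4 h of light had the most called changes. Between neighbouring times, a difference of at least 1 at an adjusted p under 0.05 was called 4606 times, by limma, over the 6 steps of the day. From ZT0 to ZT4, 895 probe sets rose (4.1%) and 707 fell (3.24%). From ZT4 to ZT8, 483 rose (2.21%) and 512 fell (2.35%), and from ZT8 to ZT12, 506 rose (2.32%) and 471 fell (2.16%). The last 4 h of light, ZT12 to ZT16, had the fewest, with 159 rises (0.728%) and 67 falls (0.307%). After lights off, ZT16 to ZT20, 196 rose (0.898%) and 265 fell (1.21%), and over the second part of the night and lights on, ZT20 to ZT0, 131 rose (0.6%) and 214 fell (0.98%).

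Single arrays moved these counts. Without the ZT0 array of day 10, 668 rose and 855 fell from ZT0 to ZT4, and 313 rose and 214 fell from ZT20 to ZT0. Without the ZT0 array of day 9, so with the array that stood apart as the only ZT0 sample, the total was 7357, with 1741 rises from ZT0 to ZT4 and 1028 falls from ZT20 to ZT0. Over all 12 single omissions the ZT12 to ZT16 rises ran from 24 (without ZT12 of day 9) to 246 and the falls from 15 (without the same array) to 111. The ZT16 to ZT20 rises ran from 31 and the falls from 53 (both without ZT20 of day 9) to 324 and 341. Without ZT4 of day 9 the ZT0 to ZT4 counts were 501 rises and 431 falls, without ZT8 of day 9 there were 271 falls from ZT4 to ZT8 and 186 rises from ZT8 to ZT12, and without ZT12 of day 9 there were 210 falls from ZT8 to ZT12. Without either ZT20 array at most 82 rises and 98 falls were called from ZT20 to ZT0. All steps share one estimate of the spread.

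**Figure D4:**
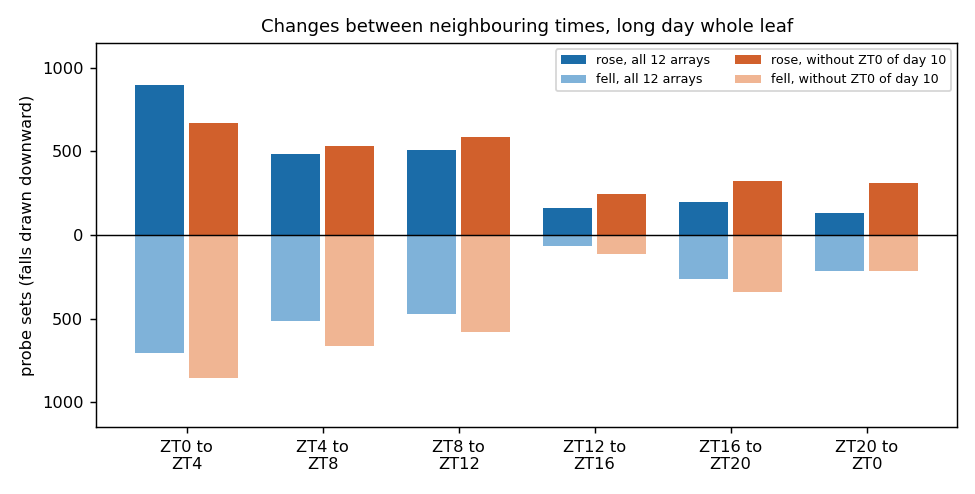
Probe sets that rose (above zero) or fell (below zero) by at least 1 on the log2 scale between neighbouring times, with all 12 arrays (blue) and without the ZT0 array of day 10 (orange). ZT0 to ZT4 has the most calls (895 rises and 707 falls) and ZT12 to ZT16 the fewest (159 and 67).

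The steps named here were chosen for their size among probe sets with a single listed gene. From ZT0 to ZT4 AT1G70820 rose by 6 ± 0.35 (SE; adjusted p = 2.5e-05), from 2.63 and 2.61 to 8.98 and 8.25, and AT1G62510 rose by 5.48 ± 0.78. AT1G26790 fell by 5.78 ± 0.55 over the same hours, from 9.18 and 6.88 to 2.08 and 2.43, and AT1G49200 fell by 4.33 ± 0.31. From ZT4 to ZT8 AT1G56300 rose by 6.25 ± 0.29 (adjusted p = 1.2e-05) and AT4G16146 by 5.62 ± 0.2, while AT3G24460 fell by 5.42 ± 0.58 and AT4G15430 by 5.06 ± 0.32. From ZT8 to ZT12 TBL26 and AT3G19100 rose by 3.01 each, and AT5G35970 fell by 5.58 ± 0.29 and AT1G73480 by 5.18 ± 0.33.

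Toward lights off AT1G19450 rose by 3.22 ± 0.33 from ZT12 to ZT16, and AT3G24460 by 4.66 ± 0.58 (adjusted p = 0.0059, up to 0.082 and lost without the ZT12 or ZT16 array of day 9). GI fell by 3.45 ± 0.28 in these hours (10.9-fold, adjusted p = 0.00078), still in the light, and AT4G30650 fell by 3.68 ± 0.3. After lights off AT4G15430 rose by 3.64 ± 0.32 (adjusted p = 0.0015) and EXPA16 by 2.65 ± 0.22. AT3G09440 fell by 4.1 ± 0.4 after lights off, from 8 and 7.5 to 3.41 and 3.88, and TBL26 fell by 3.88 ± 0.35. From ZT20 to ZT0 AT1G26790 rose by 6.27 ± 0.55 (adjusted p = 0.00079) and AT1G55960 by 5.27 ± 0.51, and CCL and AT4G34950 fell by 4.35 ± 0.46 and 3.96 ± 0.42. Without the ZT0 array of day 10 all 8 named steps into or out of ZT0 remained called. The rises of AT1G62510 and AT1G70820 from ZT0 to ZT4 were then 4.09 and 5.99, and the rise of AT1G26790 from ZT20 to ZT0 was 7.43.

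The 2 days did not differ for any probe set by the threshold used. With the time of day as a block, limma called 0 probe sets (0%) with a difference of 1 or more and an adjusted p below 0.05, the lowest adjusted p being 0.772. At an unadjusted p under 0.05 there were 1405 (6.44%). Without the ZT0 array of day 10 the count was again 0, with 1726 (7.91%) at an unadjusted p under 0.05 and a lowest adjusted p of 0.35.

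Whole leaf from short days gave more rhythmic probe sets and earlier peaks. There 7584 probe sets (34.7%) had a called rhythm by the same test, and 1598 were rhythmic in both, 76.9% of the long-day list and 21.1% of the short-day one. In these 1598 the long-day peak came later by a median of 1.93 h (quartiles 0.77 and 3.12 h), and later in 1372 (85.9%). The median lay between 1.55 and 2.13 h in each of the 6 long-day peak windows, and between 1.73 and 2.11 h when single arrays were left out. Median amplitudes were 0.76 in long and 0.74 in short days. The rhythm itself, amplitude and timing together, differed for 1446 probe sets (6.62%) in limma's F test of the interaction over 24 arrays, at an adjusted p under 0.05. The amplitude was larger in long days in 505 of these (34.9%). The count was 722 to 939 without either short-day ZT4 array, the short-day ZT12 array of day 9 or either long-day ZT16 array. GI had nearly the same amplitude in both (3.42 and 3.64) and peaks at 8.4 and 6.6 h, and the difference did not pass (1.66 ± 0.79, adjusted p = 0.37).

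The differences to short days named first were the largest in size among probe sets with a single listed gene. AT4G36850 read 9.46, 5.85, 5.75, 2.23, 2.99 and 6.21 on day 9 and 6.45, 6.13, 6.35, 2.8, 3.15 and 4.95 on day 10 of long days, and 9.61, 3.68, 2.36, 8.21, 7.17 and 7.63 and then 9.71, 3.75, 2.42, 8.53, 7.43 and 7.85 in short days. At ZT12, in the light of long days and the dark of short days, the long-day arrays were near their lowest and the short-day arrays near their highest. The vector difference of the fitted rhythms was 3.86 ± 0.9 (SE; adjusted p = 0.033, 0.05 and just past the threshold with the day as a block, lost without any of 8 of the 24 arrays and up to 0.079). AT4G27450 had the same pattern, with 1.94 and 2.52 at ZT12 of long days against 5.95 and 6.4 in short days (3.8 ± 0.74, adjusted p = 0.015). AKINBETA1, a regulatory subunit of the energy-sensing kinase SnRK1, was at 5.89 and 6 at ZT12 of long days, against 9.33 and 9.54 at ZT12 of short days (2.89 ± 0.58, adjusted p = 0.016).

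The other 2 differed in other ways. AT1G66100 was rhythmic at a higher level in long days, where it ranged from 2.78 to 10.62, than in short days, where it ranged from 2.21 to 4.68 (2.88 ± 0.59, adjusted p = 0.018). AT3G09440 stayed high to ZT16 in long days, at 8 and 7.5, and was at 3.7 and 3.27 at that time in short days, where it was highest at ZT4 (2.53 ± 0.6, adjusted p = 0.036, 0.055 with the day as a block, lost without any of 9 arrays and up to 0.088). In both day lengths its last high value was at lights off.

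**Figure D5:**
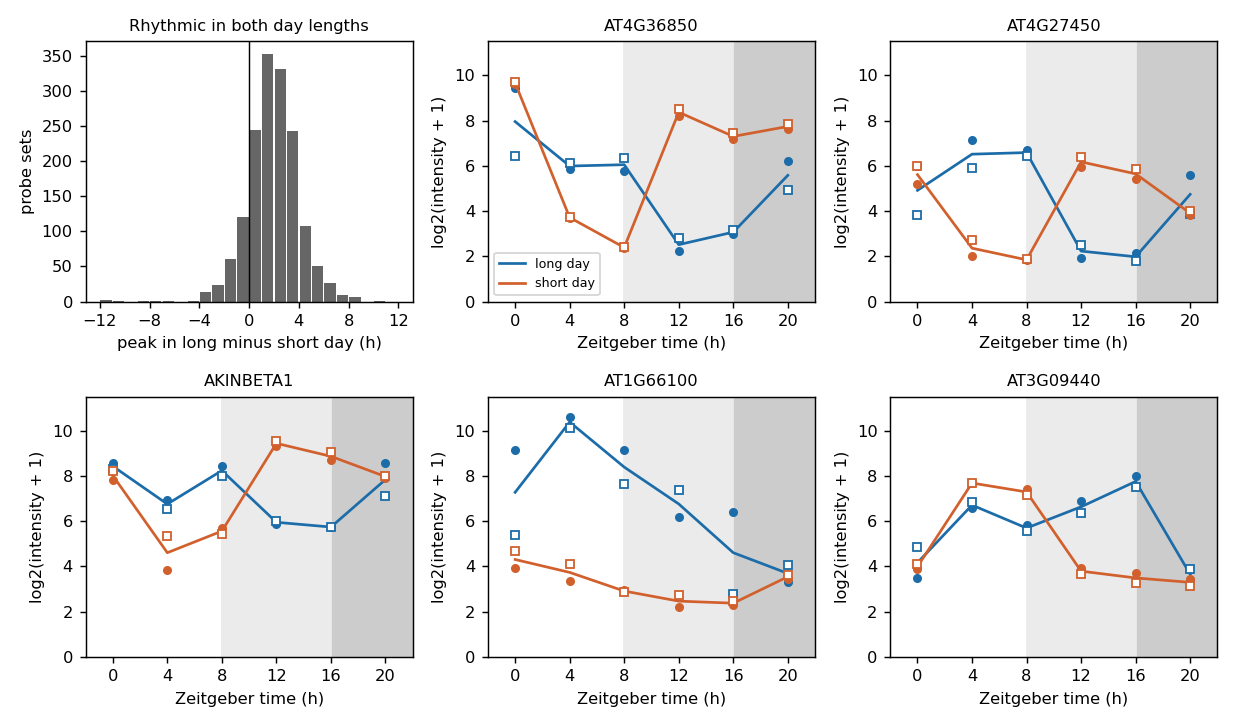
Top left, probe sets rhythmic in whole leaf of both day lengths by the peak time in long days minus that in short days (hours; median 1.93). The other panels give log2(intensity + 1) by Zeitgeber time in long and short days for 5 genes (circles, day 9; open squares, day 10; lines, means; light grey, dark in short days only; dark grey, dark in both). AT4G36850, AT4G27450 and AKINBETA1 are low at ZT12 in long days and high in short days.

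Among the gene lists, differences to short days were called in several roles. LHB1B2 read 8.88 and 8.3 at ZT16 and 8.45 and 7.26 at ZT20 in long days, against 9.95 and 10.08 and then 9.73 and 9.94 in short days. The groups did not overlap at these times, and the amplitude was 2.04 in long and 0.91 in short days (difference 1.18 ± 0.18, adjusted p = 0.0057). PSBY peaked at 5.9 h in long and 2.4 h in short days (0.62, adjusted p = 0.021). PSBW peaked at 7.6 and 4.8 h (0.39, adjusted p = 0.025, and 0.056 without the short-day ZT12 array of day 10). LHCB4.2 differed by 0.96 (adjusted p = 0.04, 0.059 with the day as a block, lost without any of 14 arrays and up to 0.084). SBE2.2 peaked at 9.4 h with an amplitude of 0.5 in long days and at 6.4 h with 0.84 in short days (0.6, adjusted p = 0.016).

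Of 8 rhythmic genes named from the hypocotyl growth and hormone lists, 4 differed from short days, against 6.62% of all probe sets. The 8 were chosen by their long-day rhythm, so that share is not a like comparison. Of the 1598 probe sets rhythmic in both day lengths, 376 differed. GID1A, XERICO, GH3.9 and SHB1 did not pass limma's F test (adjusted p = 0.65, 0.055, 0.18 and 0.3). The expansin genes EXPA16 and EXLA1, named above from another list, did not pass either. EXPA8 peaked at 6.5 h in long and 2.2 h in short days (1.74 ± 0.32, adjusted p = 0.013). At ZT0 the long-day arrays read 7.2 and 6.39 and the short-day ones 9.04 and 8.93, without overlap. BIM1 at ZT0 read 6.71 and 6.3 in long days against 8.85 and 9.02 in short days, and 7.81 and 7.95 against 6.95 and 6.98 at ZT12, so its order was opposite at these times. Its peak was at 11 h in long and 0.4 h in short days (1.28 ± 0.18, adjusted p = 0.0028). RR16 peaked at 19.9 h with an amplitude of 1.49 in long days and at 17.5 h with 2.42 in short days (1.51 ± 0.32, adjusted p = 0.02), and IAA29 differed by 1.53 (adjusted p = 0.045, 0.066 with the day as a block, lost without any of 16 arrays and up to 0.084).

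The flowering repressors SNZ and SMZ both differed. SNZ was at 5.6 and 5.14 at ZT12 in long days, against 2.82 and 2.56 in short days (1.79 ± 0.33, adjusted p = 0.013). SMZ at ZT16 was 4.32 and 3.63 against 2.84 and 2.89 (0.93 ± 0.21, adjusted p = 0.029, lost without either long-day ZT16 or either short-day ZT4 array and up to 0.07). SIR had an amplitude of 0.83 in long and 0.2 in short days (0.73, adjusted p = 0.018), and AT3G21670 differed by 1.53 (adjusted p = 0.049, 0.066 with the day as a block, lost without any of 19 arrays and up to 0.098). SIC differed by 0.52 (adjusted p = 0.026, lost without any of 4 arrays and up to 0.067), AR781 by 0.64 (0.027, lost without any of 3 and up to 0.055) and AT4G01280 by 0.53 (0.05, lost without any of 19 and up to 0.09).

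Mesophyll of long days was closest in timing. It had 2899 rhythmic probe sets (13.3%), of which 1127 were also rhythmic in whole leaf, 54.2% of the whole-leaf list. Whole leaf peaked later by a median of 0.53 h in these (quartiles -0.11 and 1.19 h), and 88.6% of the peaks were within 2 h. The rhythm differed for 188 probe sets (0.861%), a comparison that shares the 12 whole-leaf arrays with that to short days, and the amplitude was the larger in whole leaf in 75 of them (39.9%). THI2.2 had an amplitude of 3.47 in whole leaf and 0.51 in mesophyll (3.06 ± 0.58, adjusted p = 0.027, lost without any of 6 of 24 arrays and up to 0.065). AT1G66100 stayed between 1.83 and 2.37 in mesophyll (3 ± 0.58, adjusted p = 0.031, lost without any of 10 and up to 0.068).

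AT5G35735 was rhythmic in whole leaf with an amplitude of 2.52, and in mesophyll it lay between 11.23 and 11.72 at all 12 arrays (2.56 ± 0.27, adjusted p = 0.00017). AT1G36622 showed the reverse, with an amplitude of 0.21 in whole leaf and 2.57, peaking at 22.3 h, in mesophyll (2.5 ± 0.23, adjusted p = 4.1e-05). AT1G73480 peaked at 5.5 h in whole leaf and 2.4 h in mesophyll (2.37 ± 0.47, adjusted p = 0.037) and BIM1 differed by 0.94 (adjusted p = 0.045). Both of these were lost without any of 17 arrays, up to 0.089 and 0.095, and AT1G73480 also with the day as a block (0.061). Since mesophyll and vasculature were both freed by enzymes and sonication, tissue and isolation cannot be told apart here or in the comparison with vasculature below.

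Vasculature of long days had 689 rhythmic probe sets (3.16%), of which 316 were also rhythmic in whole leaf, 15.2% of the whole-leaf list and 45.9% of the vasculature list. In these the whole-leaf peak was later by a median of 0.97 h (quartiles -0.21 and 1.98 h), and the median amplitudes were 1.13 in whole leaf and 0.76 in vasculature. The rhythm differed for 800 probe sets (3.67%), and in 641 of them (80.1%) the amplitude was larger in whole leaf. AT1G55960 peaked at 3.7 h in whole leaf with an amplitude of 2.62 and at 12.6 h with 1.38 in vasculature (3.71 ± 0.71, adjusted p = 0.014). AT5G35970 peaked at 3.7 and 12.5 h, with 2.68 and 0.85 (3.31 ± 0.65, adjusted p = 0.015). THI2.2 stayed between 1.43 and 2.59 in vasculature (3.29 ± 0.58, adjusted p = 0.0075). AT1G24580 peaked at 22.9 h in whole leaf and 14.6 h in vasculature (3.04 ± 0.55, adjusted p = 0.0083), and AT2G15020 had amplitudes of 2.83 and 0.18 (2.85 ± 0.47, adjusted p = 0.0042).

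List members that differed from the vasculature had the larger amplitude in whole leaf in the cases given here. SWEET2 had 2.2 and 0.49 (1.81 ± 0.31, adjusted p = 0.0063), and DPE1 had 1.77 at 11.6 h and 1.01 at 8.8 h (1.23 ± 0.19, adjusted p = 0.003). The differences of LHB1B2, SWEET16, UGT71B1, GID1A and UGT73B2 were 1.38, 1.21, 1.18, 1.21 and 1.05, with adjusted p-values from 0.0046 to 0.021. AIM1 differed by 0.62 (adjusted p = 0.0035), AT5G39790 by 0.66 (0.0074) and RR16 by 1.37 (0.023). The calls of SIR (0.61, adjusted p = 0.028), SMZ (0.83, 0.04) and XERICO (0.7, 0.05) were lost without any of 6, 13 and 19 of the 24 arrays, up to 0.059, 0.083 and 0.11, and those of SMZ and XERICO also with the day as a block (0.051 and 0.063). GI did not pass against either tissue, with differences of 1.28 (adjusted p = 0.84) from mesophyll and 1.11 (adjusted p = 0.44) from vasculature.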

How the data were processed

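RNA of whole leaf and isolated tissues was hybridised to Affymetrix Gene ST arrays for Arabidopsis, 72 in all, and the 12 of long-day whole leaf are described here. The authors deposited linear-scale intensities. The submitters' processing notes name GCRMA, a method that corrects background with probe sequence, normalizes quantiles and summarises probe sets. Its version and the probe annotation were not given in the sources used here. Such background correction compresses low intensities toward a floor, so folds of dim genes are understated. No scanner files were used. The authors called cycling genes by pattern matching, per the labels' design text, and those calls were not used.

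Values were analysed as log2(intensity + 1). Probe sets were kept where 6 or more of the 72 arrays exceeded the 40th percentile taken over all values. Of all probe sets 16722 had 1 gene, 759 several and 11102 no listed gene, and 16574 of the first were found in the TAIR10.1 annotation of RefSeq. Those kept with 1 gene named 12016 genes. Models were fitted over all kept probe sets with limma 3.58.1 in R 4.3.3, with Benjamini-Hochberg adjustment: F tests of a 24-hour cosine and sine, of the 6 time means, of an added 12-hour pair, 6 steps between neighbouring times, day 10 against day 9, and the interaction of the cosine and sine with day length or tissue. The vector difference is the distance between 2 fitted rhythms, taking amplitude and timing together. In data simulated on the 12 arrays (21827 probe sets, 200 changed), 69% of rhythms of amplitude 0.5 and 94% of amplitude 1 were recovered, and 59% and 93% of rhythm differences of these sizes. Noise was independent and normal, and for rhythm differences both groups took the means and spread of the long-day whole-leaf arrays.

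Days were numbered alike in all groups by the labels and pair the samples by day of harvest. Deviations between the days at different times correlated at -0.23 to 0.16 over 15 pairs of times. The fits reported had no day term, and the day as a block was an alternative, with others for pseudocount, filter, normalization, threshold, test and each array left out.

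The samples described and the gene lists were chosen with earlier results of these data known. Of 51 lists, 38 were written from general knowledge and 13 were added after the probe sets' gene names were seen and before their values were computed, and 6 lists had no probe set. The result of 1 list is not reported here. Genes are named by rule, among probe sets with a single listed gene: the 4 largest amplitudes per peak window, the 2 largest rises and falls per step, the 6 largest 12-hour amplitudes, the 5 largest differences per comparison, all measured clock and flowering genes, up to 4 rhythmic members of each other list, and other list members by their values. Promoter sequences were not analysed here.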

Additional observations from a re-analysis of the deposited data

Results flagged for a closer look

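The results below are differences in rhythm between long-day whole leaf and another group, given as the vector difference on the log2 scale, each of which passed limma's test of the difference itself over 24 arrays (adjusted p under 0.05). The 3 comparisons share the long-day whole-leaf arrays. Against short-day whole leaf the largest, among probe sets with a single listed gene here and below, were AT4G36850 (3.86), AT4G27450 (3.8), AKINBETA1 (2.89), AT1G66100 (2.88) and AT3G09440 (2.53). Of the flowering and clock lists, SNZ differed by 1.79, SMZ by 0.93, AT4G01280 by 0.53 and SIC by 0.52. Photosystem genes followed with LHB1B2 at 1.18, LHCB4.2 at 0.96, PSBY at 0.62 and PSBW at 0.39. Growth and hormone genes were EXPA8 at 1.74, IAA29 at 1.53, RR16 at 1.51 and BIM1 at 1.28. The remaining ones were AT3G21670 at 1.53, SIR at 0.73, AR781 at 0.64 and SBE2.2 at 0.6.

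Against long-day mesophyll they were THI2.2 (3.06), AT1G66100 (3), AT5G35735 (2.56), AT1G36622 (2.5), AT1G73480 (2.37) and BIM1 (0.94). Against long-day vasculature the largest were AT1G55960 (3.71), AT5G35970 (3.31), THI2.2 (3.29), AT1G24580 (3.04) and AT2G15020 (2.85). Sugar and starch genes differed there by 1.81 (SWEET2), 1.23 (DPE1), 1.21 (SWEET16) and 0.66 (AT5G39790). Hormone genes differed by 1.37 (RR16), 1.21 (GID1A) and 0.7 (XERICO). The others were LHB1B2 at 1.38, UGT71B1 at 1.18, UGT73B2 at 1.05, SMZ at 0.83, AIM1 at 0.62 and SIR at 0.61.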

How the results depend on the processing

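No named result changed its direction under any alternative. With the day as a replicate block, 1680 rhythms, 4108 changes over the 6 times, 1660 12-hour components and 4606 steps were called, and the rhythm differences numbered 1107 to short days, 181 to mesophyll and 711 to vasculature, all within 1.5 times the reported counts. The block ended the named calls given with it in the report, added that of SWEET16 against mesophyll (adjusted p = 0.03), and changed no other named call. Steps numbered 2570 with a pseudocount of 8 and 7476 with no minimum difference. Rhythms numbered 956 at an adjusted p under 0.01 and 954 with an ordinary F test. Leaving out each array in turn gave 1370 to 2284 rhythms, 2780 to 6253 changes over the 6 times, 3231 to 7357 steps, 813 to 2390 12-hour components, 0 to 0 day differences, and 722 to 1822, 136 to 236 and 543 to 1070 rhythm differences to short days, mesophyll and vasculature. Of 68 named rhythm calls 39 passed under every alternative run, as did 23 of 24 named steps, 4 of 6 12-hour calls, and 11 of 21, 2 of 6 and 14 of 18 rhythm differences in the same order of comparisons. Without both ZT0 arrays the rhythm calls of CRR42 (adjusted p = 0.061) and GID1A (0.044) were lost, as were those of UGT80B1 (0.067), GR1 (0.058), AR781 (0.042), BIM1 (0.037) and SHB1 (0.069). The same omission ended the rhythm calls of PIFI, UGT87A2, EXPA16, EXLA1, AT4G33980, AT3G21670, MSRB3, PYE, COR47 and CLE41. RR16 lost its rhythm with a pseudocount of 8 (adjusted p = 0.047) and its difference from vasculature too (0.067). That pseudocount also ended the rhythm calls of SWEET16, IAA29, GH3.9, HSA32, ATG8D, PIFI, UGT87A2, EXPA16, EXLA1, AT4G33980, AT3G21670, MSRB3, PYE, COR47 and CLE41. Some other named calls, of rhythm differences and of a 12-hour component, were lost with it too. Low intensities limit the precision of dim genes, whose values lie near the background floor.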

Other observations

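Some courses held a single narrow peak or trough, with both arrays of a time at least 1 above or below all other 10 arrays. Narrow peaks numbered 17 at ZT0, 58 at ZT4, 40 at ZT8, 5 at ZT12, 7 at ZT16 and 3 at ZT20. Narrow troughs numbered 23, 32, 12, 32, 1 and 2 at the same times. The examples given here were chosen after their values were seen, as those with the widest gap at a time. AT1G26790 read 9.18 and 6.88 at ZT0 and between 1.63 and 2.43 in the other 10 arrays. SAG29, the sugar transporter SWEET15, read 6.46 and 7.75 at ZT4 and at most 3.15 at any other time. AT5G16980 read 6.76 and 6.64 at ZT16, when the lights went off, and at most 4.5 elsewhere.

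The troughs given here stood below higher levels at all other times. CCL read 4.4 and 6.14 at ZT0 and between 9.18 and 11.39 in the other 10 arrays. TMT1, the vacuolar sugar loader, was at 4.03 and 4.28 at ZT4 and at 6.6 or above otherwise. AT1G19450 was at 3.15 and 3.26 at ZT12 and at 6.07 or above otherwise.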
